A study of Rattus norvegicus with 179 samples.

Results

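The prefrontal cortex held 44 genes whose levels differed widely from rat to rat in this tissue and which were outside the rank limits set for variable genes in the hippocampus, liver, colon, or tibialis anterior (TA) muscle of the same rats. They were chosen from 32545 Ensembl gene IDs by the rank of their variance, with limits on their median level. Counts were scaled to the total of each library as CPM, a level relative to all counts of that library, and the variance of log2(CPM+1) was ranked in each tissue over the genes with a median of at least 5 CPM. Of the top 150 of 10982 prefrontal genes, 54 were outside the top 500 of each of the other 4 tissues, and 10 of these were dropped because their medians differed 3-fold or more between prefrontal cortex and hippocampus. Genes under 5 CPM in a tissue were not ranked there and so counted as outside, which applied to 14 of the 44 in hippocampus, 23 in colon, 32 in liver, 34 in muscle, and 7 in all 4. Of the 14 in hippocampus, 8 had a larger variance there than the gene at rank 500 (0.522), so they passed by a low level and not by a low variance. The variances of the members at ranks 143, 145, and 147 were 0.735, 0.732, and 0.718, and those of the first 3 genes past rank 150 that met the other conditions (ranks 151, 155, and 156) were 0.715, 0.711, and 0.708, so the limit cut through a continuous range. The median variance of the members was 0.908, against 0.115 over all 10982 ranked genes, a difference that the choice itself made.

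The libraries came from male F344BN rats that were aged 24 mo when obtained. CON rats received buffer, LP rats received Lactobacillus paracasei, and LPA rats received L. paracasei engineered to express Ang (1–7), by gavage 3 times/wk for 12 wk. Each treatment was combined with treadmill exercise (Ex; 12 cm/s, 5 days/wk, after 2 wk of acclimatization) or with 10 min/day on a treadmill that was switched off (Sed), giving 6 groups (CONSed, CONEx, LPSed, LPEx, LPASed, and LPAEx) of 6 rats, with 1 prefrontal library per rat and all treatments started in aged animals. The files do not pair the gene IDs with gene symbols, so the members are described by their values and by what they shared, and only a few are named by ID.

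The prefrontal cortex directs attention, working memory, and flexible behavior, and it receives input from most other cortical areas and from the thalamus and hippocampus. It is built of layers of excitatory projection neurons with intermingled inhibitory interneurons, glia, and vessels, and a bulk library adds up the RNA of all of them. Fewer cells of a type and less RNA per cell cannot be told apart in such libraries.

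Total counts in the 36 prefrontal libraries ranged from 13211009 to 17944320, so 1 CPM stood for about 14.4 counts in the median library. The 782 brain-enriched genes (brain median from 20 CPM up, 10-fold or more over liver, colon, and muscle) took 18.0–21.9% of the counts in 33 libraries, and 15.8% in LPAEx rat 7, 17.1% in LPAEx rat 6, and 17.7% in CONEx rat 5. On a scale set by 111 genes that were at least 3-fold higher in hippocampus, from 0 at their prefrontal to 1 at their hippocampal median, LPAEx rat 9 stood at 1.10 and CONSed rat 7 at 0.60, and the other 34 were at most at 0.23. Of the 44 members, 3 were in the brain-enriched list, which held 782 of the 10982 ranked prefrontal genes. Members under 20 CPM in either brain region could not enter that list. None was in the lists for liver, colon, or muscle. A median of at least 5 CPM was reached by 30 of the 44 members in hippocampus, 21 in colon, 12 in liver, and 10 in muscle.

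The members did not vary independently. When their levels were clustered by Pearson r over the 36 libraries (average linkage, 1 - r cut at 0.5), 32 genes fell in 1 group, 6 in another, and 2 formed a pair, while 4 stood alone. The group of 32 was split by a cut at 0.4 into a set of 19 and a set of 13, and these sets are described separately. The median r between members of a set was 0.766 in the set of 19, 0.810 in the set of 13, and 0.837 in the set of 6, against 0.08 over all pairs of the ranked genes. The set of 6 was nearly unrelated to the others, with a median r of -0.01 to the set of 19 and 0.14 to the set of 13. Clustered genes were by construction alike, and the points of each r were the same libraries that chose the members, so these values carry no test.

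**Figure D1:**
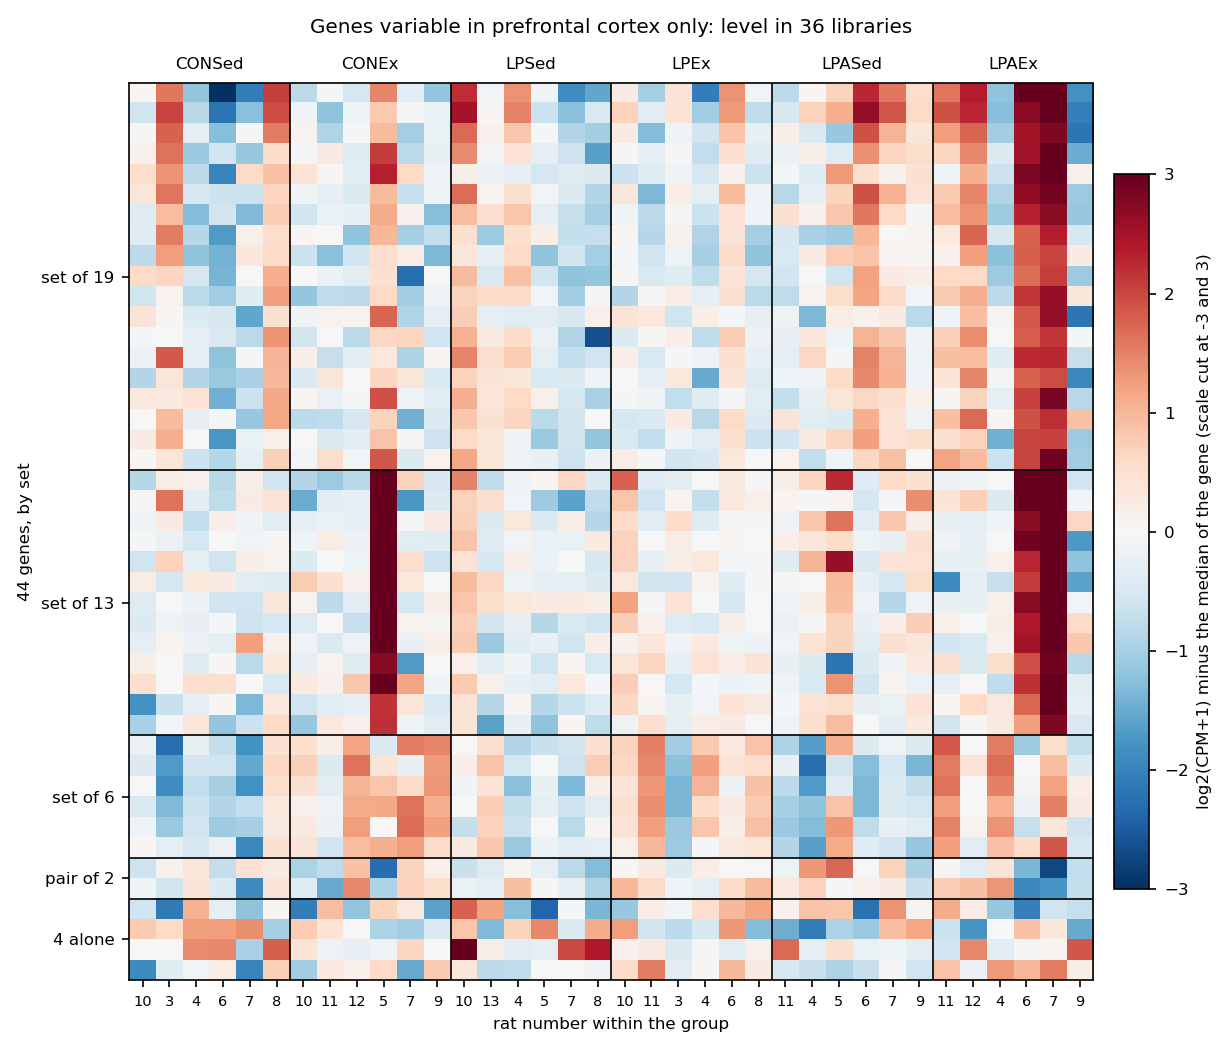
Level of the 44 genes (rows, by set) in the 36 prefrontal libraries (columns, by group and rat number), as log2(CPM+1) minus the median of the gene. The set of 13 is high in CONEx rat 5 and LPAEx rats 6 and 7, the set of 19 is graded over several libraries, and the set of 6 is mostly higher in the Ex libraries.

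The set of 13 was set apart by 3 rats. In LPAEx rat 7 its mean was 3.85 log2 units above the gene medians (14.4-fold), in CONEx rat 5 it was 3.44 (10.8-fold), and in LPAEx rat 6 it was 2.56 (5.91-fold). All 13 genes were more than 2-fold above their medians in each of these 3 libraries, and for 12 of the 13 these were the 3 highest libraries. In the other 33 libraries the mean stayed between -0.45 and 0.84, the highest being LPASed rat 5.

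The member with the largest variance, ENSRNOG00000049407 (chosen after its values were seen), shows the pattern in counts. Its CPM was 417.2 in LPAEx rat 7, 323.2 in CONEx rat 5, and 120.9 in LPAEx rat 6, and the next library, LPASed rat 5, had 28.8 CPM. The median was 5.34 CPM, and 5 of the 6 groups had medians between 3.06 and 5.25 CPM, with 8.12 CPM in LPASed. Thus the library values of CONEx and LPAEx overlapped those of every other group except for these 3 rats.

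The same 3 libraries were those with the least brain-enriched RNA. Of the 13 genes, 12 had a median of at least 5 CPM in hippocampus, 4 in colon, 2 in muscle, and 1 in liver, and under 1 CPM were 8 in liver, 8 in muscle, and 4 in colon. The share of counts in colon-enriched genes was 0.217% in LPAEx rat 7, 0.164% in LPAEx rat 6, and 0.142% in CONEx rat 5, against at most 0.134% in the other 33. For liver-enriched genes the shares were 0.375, 0.330, and 0.256%, against 0.185–0.347% in the others. For muscle-enriched genes they were 0.211% in LPAEx rat 7, 0.174% in LPAEx rat 6, and 0.197% in CONEx rat 5, against 0.155–0.184% in the others. The part of these shares in the pattern was not tested, and markers of single brain areas or cell types could not be read without gene symbols.

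The set of 19 followed the same 3 libraries less strictly. Its mean was 2.66 log2 units above the medians in LPAEx rat 7 (6.32-fold) and 2.20 in LPAEx rat 6 (4.60-fold), with all 19 genes more than 2-fold up in both. In CONEx rat 5 the mean was 1.10 (2.14-fold), and 8 of the 19 genes were more than 2-fold up. Other libraries came as high or higher than CONEx rat 5, namely LPAEx rat 12 at 1.32 and LPASed rat 6 at 1.26. At the other end CONSed rat 6 stood at -1.23 and LPAEx rat 9 at -0.93, so that the mean of these genes was spread over every group.

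The 2 sets therefore differed in how far they depended on the 3 libraries. Without them the median r within the set of 19 was 0.650, and that within the set of 13 was 0.250. The median r between the sets fell from 0.53 to 0.14. The median variance went from 0.810 to 0.608 in the set of 19 and from 1.12 to 0.316 in the set of 13. The sets also differed in where else the genes were found. In the set of 19, a median of 5 CPM was reached by 16 genes in colon, 10 in hippocampus, 10 in liver, and 6 in muscle. Median levels in prefrontal cortex were low in the set of 19, from 5.10 to 12.2 CPM, and ranged from 5.34 to 39.2 CPM in the set of 13.

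**Figure D2:**
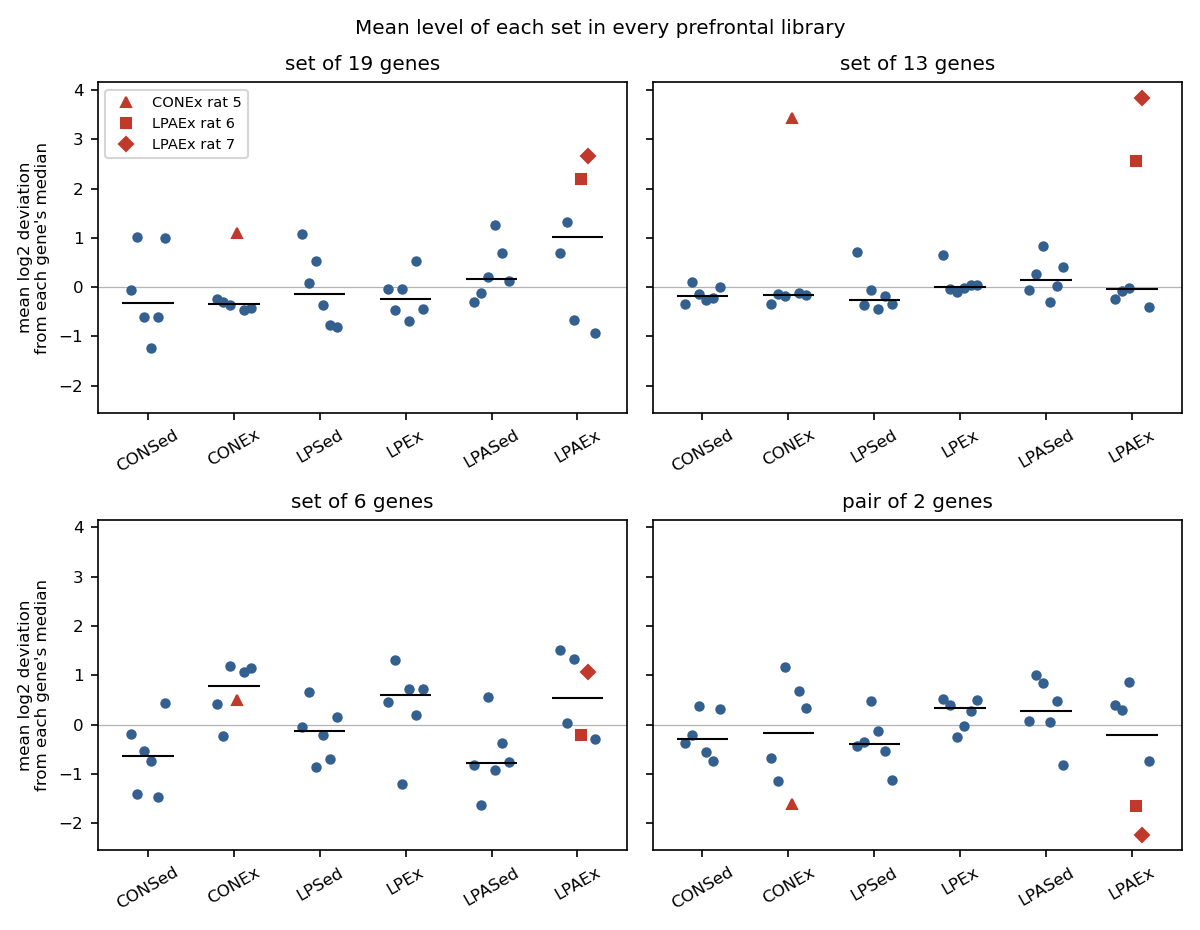
Mean log2 deviation from the gene medians in every prefrontal library, by group, for the sets of 19, 13, and 6 genes and the pair. Points are libraries, horizontal lines are group medians (n = 6), and red symbols mark LPAEx rat 7, LPAEx rat 6, and CONEx rat 5, which are highest in the set of 13 and lowest in the pair.

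The pair ran the opposite way. Its mean was -2.24 in LPAEx rat 7, -1.66 in LPAEx rat 6, and -1.60 in CONEx rat 5, below the -1.13 of the lowest other library, CONEx rat 11. One of the 2, ENSRNOG00000026679, had 9.47 CPM in LPAEx rat 7 and a median of 68.1 CPM in prefrontal cortex, with 581.8 CPM in muscle. Its median was 33.1 CPM in hippocampus, where a single library, CONSed rat 3, reached 334.1 CPM. The r between the 2 genes was 0.62, and 0.47 without the 3 libraries.

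Hippocampal libraries of the same rats took no part in ranking a gene as variable in prefrontal cortex. They did not show the pattern of the set of 13 in the 12 of its genes that reached 5 CPM there. The gene left out was ENSRNOG00000049407, with a hippocampal median of 4.38 CPM. Its hippocampal variance, 1.16, was above the 0.522 of the gene at rank 500, so it passed the choice by a low level. Over the 12 genes that reached 5 CPM, the mean deviation was 0.05 in LPAEx rat 7, 0.03 in LPAEx rat 6, and -0.28 in CONEx rat 5, with no gene more than 2-fold up. Over the 10 such genes of the set of 19 it was -0.10, 0.08, and 0.47 in these rats, the last being the third highest of the 36 hippocampal libraries, with 1 gene more than 2-fold up. The median r over the 12 genes of the set of 13 was 0.04 in hippocampus, close to the 0.02 over all ranked genes of that tissue. Over the 10 genes of the set of 19 it was 0.27 in hippocampus, and over 16 genes it was 0.27 in colon, where all ranked genes had 0.13. Being outside the top 500 in hippocampus was part of the choice, which leaves less room for co-variation there. Within 1 rat, prefrontal and hippocampal levels of the members were hardly related: the median r over 36 rats was 0.01 for 22 genes of the group of 32 and -0.06 for the set of 6, against 0.04 over 10794 genes.

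The set of 6 had no such isolated libraries and was higher in most Ex libraries. Relative to the gene medians its mean was highest in LPAEx rat 11 (1.50 log2 units, 2.84-fold), LPAEx rat 4 (1.33), and LPEx rat 11 (1.31), and lowest in LPASed rat 4 (-1.62), CONSed rat 7 (-1.47), and CONSed rat 3 (-1.42). Of the 18 Ex libraries, 17 were above the median of the 18 Sed libraries, and 9 were above the highest Sed library, LPSed rat 13 at 0.67. LPEx rat 3, at -1.20, was the exception. The medians were -0.64 in CONSed and 0.78 in CONEx, -0.13 in LPSed and 0.59 in LPEx, and -0.79 in LPASed and 0.54 in LPAEx, with overlap between Sed and Ex in each treatment.

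These 6 genes had median levels of 11.3 to 89.9 CPM in prefrontal cortex and 10.3 to 108.6 CPM in hippocampus, and 2 of them were in the brain-enriched list. In liver 5 of the 6 were under 1 CPM. They also stayed together when the 3 libraries were left out (median r 0.848), within the Sed libraries alone (0.740), within the Ex libraries alone (0.763), and after the group means were taken off (0.793). In hippocampus, where the set was not defined, their median r was 0.528 (0.02 to 0.87), with 10 of the 15 pairs over 0.5. In prefrontal cortex all 15 pairs were. Part of the set thus varied together in hippocampus as well, with Sed libraries such as CONSed rat 10 and LPASed rat 11 at the top (1.16 and 1.08). Among the other 10976 ranked prefrontal genes, 408 (3.72%) had an r of at least 0.7 to the mean of the set, and only 3 of the 106 nonmembers in the top 150 did.

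The question of the exercise comparison was whether the Ex and Sed libraries differed when averaged over CON, LP, and LPA. Levels were compared with the edgeR quasi-likelihood test over all 15766 genes that passed its filter on low counts, which included all 44 members, and a gene was called at a false discovery rate (FDR) < 0.10 and an absolute log2 fold change > 1. Across all genes 0.679% were called, 0.565% upward and 0.114% downward. Of the 44 members, 8 were called, all upward: 2 of the set of 6, 6 of the set of 13, and none of the set of 19, the pair, or the 4 alone. DESeq2 also called 8, and its percentage over all genes is not given here. The median log2 fold change was 0.48 over the members and 0.01 over all genes tested. Since the members were taken for their spread over these libraries, large differences between groups of them were more likely from the outset.

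By FDR alone 5.16% of all genes rose and 5.58% fell with exercise, and 15 members rose and 1 fell. All 6 genes of the set of 6 were among those that rose, with log2 fold changes from 0.66 to 1.14 and FDRs from 0.00414 to 0.0979 (edgeR). With 1 library left out at a time, 5 of the 6 stayed under an FDR of 0.10 in all 36 fits, and ENSRNOG00000023972, named for this dependence after its values were seen, did in 10 of 36 (FDR up to 0.170). The smallest FDR among the members belonged to ENSRNOG00000021091. Its CPM in Sed ranged from 18.8 to 102.7 around a median of 42.8 (n = 18), and in Ex from 26.9 to 223.7 around a median of 115.9 (n = 18). Its log2 fold change was 1.14 ± 0.22 (SE), with an FDR of 0.00414 by edgeR. ENSRNOG00000048230 was low in absolute terms, with a median of 7.49 CPM in Sed (1.59–21.3) and 17.4 CPM in Ex (4.27–38.2), and its log2 fold change was 1.12 ± 0.26 (edgeR, FDR = 0.00879). For both genes Sed and Ex overlapped in range while the medians differed more than 2-fold.

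No member fell past both thresholds. The 1 member that fell by FDR was ENSRNOG00000055765, one of the 4 that stood alone, with a log2 fold change of -0.92 ± 0.30 (edgeR, FDR = 0.0564). Its median was 10.1 CPM in Sed (4.37–82.1) and 9.30 CPM in Ex (5.90–37.3), so the difference lay in the higher Sed libraries, found in CON, LP, and LPA. These included LPSed rats 10, 8, and 7 (82.1, 54.5, and 40.1 CPM), CONSed rat 8 (35.5), and LPASed rat 11 (33.2). The highest in Ex were LPAEx rat 9 (37.3 CPM) and LPAEx rat 12 (27.7). It was under 1 CPM at the median in liver, colon, and muscle. Without LPAEx rat 9 and CONSed rat 7 the value was -1.13, past both thresholds, and without the 3 libraries low in brain-enriched RNA it was -0.80 (edgeR, FDR = 0.126). Like ENSRNOG00000049407, it was chosen after its values were seen.

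**Figure D3:**
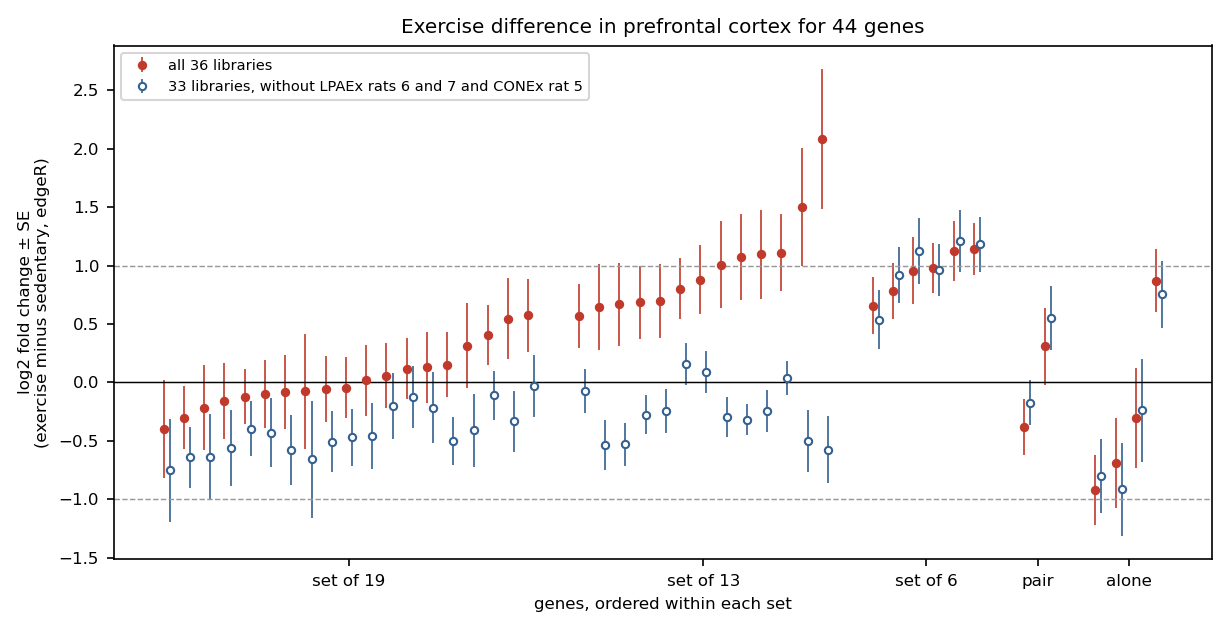
Log2 fold change ± SE (edgeR) of exercise minus sedentary in prefrontal cortex for each of the 44 genes, with all 36 libraries (filled) and with the 33 that remain without LPAEx rats 6 and 7 and CONEx rat 5 (open); dashed lines mark a log2 fold change of -1 and 1. The set of 6 keeps its values, from 0.66 to 1.14 and from 0.54 to 1.21, while the 13 genes lie above 0 with all libraries and 10 of them below 0 without the 3.

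The 3 libraries were all from Ex rats, and the exercise result for the set of 13 rested on them. With them all 13 log2 fold changes were positive (median 0.88, 6 called). Without them the median was -0.27, 3 of the 13 were positive, and none was called. ENSRNOG00000049407 went from 2.08 ± 0.60 (edgeR, FDR = 0.0315) to -0.57 ± 0.29 (FDR = 0.240). In the set of 19 the median moved from -0.05 to -0.46, again with no call. The set of 6 stayed at a median of 0.97 with and 1.04 without the 3 libraries, with 2 and 3 genes called and 6 and 5 past the FDR. The percentage of all genes called without these libraries is not given here, so the counts without them cannot be set against it. In both fits all 6 genes were higher in Ex, as they were when TMM scaling was replaced by column totals. That scaling, added after the data were seen, moved the median of all genes from 0.01 to 0.16 and gave 219 genes up and 13 down in place of 89 and 18. Single libraries also set the number of members called, which was 3 without CONEx rat 5 or without LPAEx rat 7, 4 without LPSed rat 7, and 5 without LPASed rat 6 or without LPEx rat 10, while 0.502–0.614% of all genes were called in these fits. Without LPAEx rat 9 and CONSed rat 7, 8 members rose and 1 fell, where 0.754% of all genes were called.

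Exercise and sedentary libraries also differed in composition. The 10 highest genes took a median of 15.8% of the counts in Sed (10.8–23.3%) and 12.2% in Ex (8.73–18.5%), and the number of genes with a count was 16180.5 against 17258 at the median. With this share as a covariate, a choice made after the data were seen, no member was called. The percentage of all genes called in this fit is not given here, so this count cannot be set against it. The log2 fold changes of the set of 6 were then 0.50 to 1.03 with FDRs of 0.138 to 0.457 (edgeR), and 3 of the 6 had an unadjusted p below 0.05.

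In hippocampus the same comparison gave no call among 16113 genes tested (0.0%), at an unadjusted p below 0.05 for 627 genes (3.89%) and 5 of the 44 members, and DESeq2 called no member either. The 6 genes had log2 fold changes between -0.33 and -0.13 there, opposite in sign to those in prefrontal cortex. ENSRNOG00000021091 was at a median of 75.3 CPM in Sed and 74.8 CPM in Ex (edgeR log2 fold change -0.14 ± 0.20, FDR = 0.984).

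**Figure D4:**
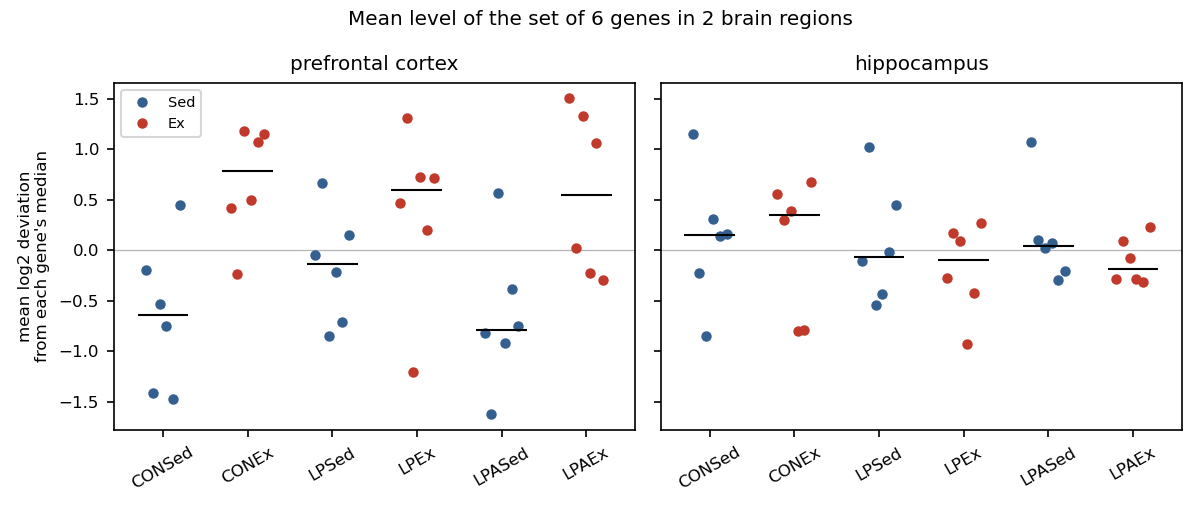
Mean log2 deviation of the set of 6 genes from the gene medians in each library of prefrontal cortex and of hippocampus, by group (blue, Sed; red, Ex; lines are medians of 6 libraries). In prefrontal cortex the group medians are -0.79 to -0.13 in Sed and 0.54 to 0.78 in Ex, and in hippocampus they are -0.06 to 0.15 in Sed and -0.18 to 0.35 in Ex.

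Whether the exercise difference itself differed between the regions was tested in 1 edgeR fit of the 72 brain libraries with the rat as a block, a test added after the data were seen. It was larger in prefrontal cortex than in hippocampus by 0.92 to 1.39 log2 units for the 6 genes, and each had an unadjusted p below 0.05, of which the smallest was 7.1e-05. None of 16791 genes passed the FDR (0.0%), and the 6 genes had FDRs of 0.183 to 0.378, so a difference between the regions did not hold after correction over all genes. At an unadjusted p below 0.05 were 9.66% of all genes and 9 of the 44 members. The choice took genes of high variance rank in prefrontal cortex and, where ranked, of lower rank in hippocampus, and 43 of the 44 had the larger variance in prefrontal cortex, so the regions did not enter this comparison on equal terms.

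The combined group, LPAEx, was then compared with each Sed group. These 3 comparisons share the LPAEx libraries, so they are given side by side. Against CONSed 5 members were called, all upward, where 0.444% of all genes were called, 0.362% upward and 0.0825% downward: 4 of the set of 13 and 1 of the set of 6. Against LPASed 5 members rose and 1 fell, where 1.21% of genes rose and 0.285% fell (1.5% in all). Those that rose were 2 of the set of 13, 2 of the set of 6, and 1 of the 4 alone. Against LPSed 6 members rose, where 0.533% of genes rose and 0.14% fell (0.672% in all): 5 of the set of 13 and 1 of the set of 19. The median log2 fold changes of the members were 1.20, 0.97, and 1.12, against 0.03, 0.04, and 0.05 over all genes. The members were taken for their spread over these libraries, and LPAEx rat 7 was the highest library for 31 genes of the group of 32. High values in LPAEx were thus more likely from the outset, and neither the medians nor the counts test them.

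Without LPAEx rats 6 and 7 and CONEx rat 5 these counts were 0 against CONSed, 2 up and 2 down against LPASed, and 0 up and 1 down against LPSed, where 0.168, 1.11, and 0.535% of all genes were called, and the medians of the members were -0.0021, -0.30, and 0.11. The members that fell were of the set of 13. Without LPAEx rat 9 and CONSed rat 7, the pair of libraries toward the hippocampus, the counts were 0, 16, and 14, where 0.0, 2.02, and 0.836% of all genes were called. Single libraries weighed as much: leaving out 1 at a time gave 0 to 15 members against CONSed, 2 to 14 against LPASed, and 0 to 12 against LPSed, the low end being reached without LPAEx rat 7 and the high end without LPAEx rat 9 in each. Against CONSed the count was also 0 without CONSed rat 3, 4, 7, or 10, 1 without CONSed rat 6, 3 without LPEx rat 8 or 10 or LPSed rat 5, 8 without LPAEx rat 4, 9 without CONEx rat 5 or 7 or LPAEx rat 12, and 15 without CONSed rat 8, where 0.0–1.49% of all genes were called over these fits. Against LPASed it was also 2 without LPASed rat 4, 10 without CONEx rat 7, 12 without LPAEx rat 12, and 13 without CONEx rat 5 (0.71–2.21% of all genes). Against LPSed it was 1 without LPSed rat 5 or 7, 3 without LPAEx rat 6 or LPSed rat 8 or 13, 10 without LPAEx rat 4, and 11 without CONEx rat 5 (0.214–1.02% of all genes). The 2 that still rose against LPASed were both of the set of 6, ENSRNOG00000021091 and ENSRNOG00000048230. With all libraries their log2 fold changes against LPASed were 1.53 ± 0.39 (edgeR, FDR = 0.0270) and 1.72 ± 0.45 (FDR = 0.0303), and without the 3 libraries they were 1.64 ± 0.43 (FDR = 0.0410) and 1.90 ± 0.49 (FDR = 0.0399). The groups hardly overlapped for the second, with 8.26–38.2 CPM in LPAEx (median 18.8, n = 6) and 1.59–9.47 CPM in LPASed (median 5.77, n = 6).

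The member that fell against LPASed with all libraries was ENSRNOG00000026679, the more abundant of the pair, which was chosen after its values were seen. Its CPM was 9.47–88.7 in LPAEx (median 47.5, n = 6) and 34.2–227.2 in LPASed (median 89.5, n = 6). The log2 fold change was -1.41 ± 0.42 (edgeR, FDR = 0.0525), and -1.01 ± 0.36 (FDR = 0.123) without the 3 libraries.

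The probiotics made no called difference to the members. For LP against CON, averaged over Sed and Ex, edgeR and DESeq2 called no member, edgeR called no gene (0.0%), and 2 members had an unadjusted p below 0.05, where 2.33% of all genes did. For LPA against LP the count of members was also 0 by both tools, and edgeR called no gene (0.0%), but 28 of the 44 members had an unadjusted p below 0.05, where 4.99% of genes did, with a median log2 fold change of 0.80. These 28 were 17 of the set of 19 and 11 of the set of 13. Since the members were taken for their spread over these libraries, such differences were more likely from the outset. Without the 3 libraries, of which 2 were LPAEx, 4 members were below 0.05, of which 2 were among the 28, 2.79% of all genes were, and the median was 0.24.

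LPAEx was compared with the other Ex groups in the same way. Against CONEx no gene was called by edgeR (0.0%), DESeq2 gave an adjusted p for 5 members and called none, and 13 members had an unadjusted p below 0.05 where 10% of all genes did. All of these 13 belonged to the set of 19. This comparison set 2 of the 3 libraries against the third, and without CONEx rat 5 alone 12 members were called, all upward, where 0.948% of all genes were called. There were 2 called without LPAEx rat 4 (0.113% of all genes), and 1 without CONEx rat 9 or CONSed rat 8 (0.069 and 0.0125%). Against LPEx, which held none of the 3, edgeR called no gene (0.0%) and DESeq2 called 2 members (0.0706% of all genes). Here 30 members had an unadjusted p below 0.05 against 7.31% of all genes, and 3 did without the 3 libraries, where 2.41% of all genes did. Without LPAEx rat 4 edgeR called 1 member (0.0501% of all genes). In these comparisons too, the choice by spread made differences more likely from the outset.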

How the data were processed

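STAR was used by the authors for alignment to Rnor_5.0 and for gene counts, after adapters and poor bases had been removed (Trim Galore, cutadapt) and FastQC run. The deposited values are raw counts per Ensembl gene ID, 1 column for each of 179 libraries from 5 tissues of 36 rats. Strand handling and tool versions are not given in the sources used here. None of the IDs could be paired with a symbol. The members and lists were chosen with earlier results of these data known. The ranking left out 2 liver libraries (LPAEx rat 7 and LPEx rat 4).

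Levels were log2(CPM+1) from column totals. Counts were tested in edgeR (4.0.16; R 4.3.3; quasi-likelihood, 1 factor of the 6 groups, filterByExpr, TMM scaling), p-values were adjusted over all genes (Benjamini-Hochberg), and a gene was called where its FDR was < 0.10 and its fold change above 1 log2 unit in size. The study's methods used DESeq2 with 1 group factor, which was an alternative here (1.42.0). Other alternatives were RLE factors, column totals, no filter, the rat number as a block, a covariate, and libraries left out; scripts were tested on simulated data. Total counts of the 36 prefrontal libraries were 13211009–17944320. Clustering used Python 3.11.15 and scipy 1.17.1. The study numbers rats within each group, and the check of those numbers as a block is given with the alternatives. Named IDs were the 2 called members of smallest p with exercise, the largest variance, the members that fell, and ENSRNOG00000023972 for its dependence on single libraries. All but the first 2 IDs were chosen after their values were seen. No sequences or symbols are shown.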

Additional observations from a re-analysis of the deposited data

Results flagged for a closer look

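In 54 tests of whether 1 of the 6 libraries of a group stood apart (9 quantities in 6 groups), 6 tests did so, in 3 libraries, where chance gives about 1 in 20. The quantities share genes and libraries, so the tests are not independent. They were also built from genes chosen for their spread over these same libraries, so the rate of 1 in 20 does not apply to them. CONEx rat 5 stood apart from the other CONEx rats in the mean of the set of 19 (1.10 log2 units above the gene medians, with the next rat at -0.24), in the mean of the set of 13 (3.44, with the next at -0.12), and in ENSRNOG00000049407 (8.34 as log2(CPM+1), with the next at 3.34).

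LPEx rat 10 stood apart in the mean of the set of 13 (0.66, with the next at 0.04) and in ENSRNOG00000049407 (4.44 as log2(CPM+1), with the next at 2.94). The hippocampus of that rat also held the highest hippocampal level of this gene, 166.1 CPM, against 12.9 CPM in the next rat, CONEx rat 11. LPSed rat 10 stood apart in the mean of the set of 13 (0.71, with the next at -0.06), and its hippocampus had the highest mean of the set of 19, 1.38, with 7 of 10 genes more than 2-fold up. In LPAEx, where rats 6 and 7 were both high, neither was apart by this measure.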

How the results depend on the processing

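With exercise, 8 members were called: 16 with no limit on the fold, 3 without LPAEx rats 6 and 7 and CONEx rat 5, 0 with the share of the 10 highest genes as a covariate, and 3 to 11 with 1 library left out. For LPAEx against CONSed the 5 called became 12 with DESeq2 (1.26% of all genes called), 18 with column totals (2.19%), 3 with no filter (0.156%), 0 with the covariate, 0 without LPAEx rat 9 and CONSed rat 7, 0 without the 3 libraries, and 0 to 15 with 1 left out. Against LPASed the 6 became 13 with DESeq2 (2.3%), 21 with column totals (4.28%), 16 without LPAEx rat 9 and CONSed rat 7, and 2 to 14 with 1 left out. Against LPSed the 6 became 21 with column totals (2.68%), 0 with the covariate, 14 without LPAEx rat 9 and CONSed rat 7, 1 without the 3 libraries, and 0 to 12 with 1 left out. Against CONEx 0 became 0 to 12 with 1 left out, and against LPEx 0 became 2 with DESeq2 and 0 to 1 with 1 left out. The exercise log2 fold change of ENSRNOG00000049407 turned to -0.57 without the 3 libraries. Where no percentage of all genes is given here or above, a count of members cannot be set against it. The causes were not tested.

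The choice gave 44 members, and 25 with the top 100, 27 with a wider rank limit in the other tissues, 28 without the 3 libraries (19 shared), and 36 to 50 with 1 prefrontal library left out. A CPM minimum of 1 gave 34 members, of which 6 were shared. The largest co-variation group, 32 genes, had 19 with Spearman's rho or a cut at 0.4, and 18 without the 3 libraries, while the set of 6 clustered together under all 8 settings. As members, however, the 6 depended on the limits: 0 were chosen with a CPM minimum of 1, 3 with one of 10, 3 with the top 100, 4 with TMM scaling, 5 without LPAEx rat 9 and CONSed rat 7, and 1 with the wider rank limit, their hippocampal ranks being 535 to 1928.

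With the rat number as a replicate block, 0 members were called against CONSed and 1 against LPSed (0.0 and 0.133% of all genes). The numbers did not pair the rats: over 49 pairs of equal number in different groups, deviations from the group means had a median r of -0.0013 (-0.15 to 0.16), and over 491 other pairs it was 0.0002.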
